A study of Xenopus tropicalis with 11 samples.

Results

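The coactivator p300 and the histone mark H3K27ac were compared by position in whole early gastrula embryos of Xenopus tropicalis. The members were chosen by sequence name, which keeps every line on a sequence whose name starts with Chr. This gave 179988 p300 summits of 219494 in all, in 151050 of 181254 p300 intervals, and 73687 of 91764 H3K27ac intervals. The 7 peak lists of the series hold 939072 lines together. Chromatin for every library came from embryos of the Nigerian A strain at stage 10.5, and no genotype other than the strain and no agent is named. Per the labels, lysates were made from 2000 to 3000 fixed embryos. The p300 library shares an input with the library of the corepressor TLE, and the H3K27ac library shares another with H3K4me1. With a single library for each antibody, neither a replicate error nor a p-value can be given. Intervals in brackets are 95% intervals that cover counting error only, and ranges over the 10 chromosomes show how far the values vary along the genome.

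p300 is an acetyltransferase that is brought to DNA by transcription factors and acetylates histones, H3K27 among the residues. H3K27ac accompanies active enhancers and promoters. At such elements the transcription factors and coactivators are known to occupy accessible DNA, while the mark sits on the nucleosomes around it. The position of p300 relative to the mark therefore addresses whether the coactivator lies within the acetylated intervals, at their edges or between them.

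The lists differ in form, and their shortest intervals and gaps bound the resolution of what follows. The p300 list gives a summit, the base of highest signal, for each sub-peak of an interval, and its intervals on the chromosomes are 75 to 2214 bp wide with a median of 131 bp. The H3K27ac list gives intervals without summits, 152 to 3293 bp wide with a median of 276 bp, and covers 27.04 Mb or 2.13% of the 1272.5 Mb between the first base and the last peak of each chromosome. The fold is the authors' enrichment over local background and is used to describe peaks within a list. A summit is called strong below when its deposited −log10 q is 10 or more, which holds for 60214 p300 summits (33.5%) and for 3755 H3K27ac intervals (5.10%). Read depth is unknown from peak lists. Whole embryos were lysed, so p300 and acetylation found at a shared position may stem from different cells.

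Most p300 summits lay away from called acetylation, but their density was higher inside it than within 500 bp outside as a whole or farther away. Gaps of at most 500 bp between neighbouring H3K27ac intervals, a part of the sequence within 500 bp outside, were denser still, at 2201 per Mb. Of the 179988 summits, 17.2% lay inside an H3K27ac interval (30957 summits, 17.03 to 17.37). A further 20.9% lay outside every interval but within 500 bp of an edge (20.7 to 21.1), a zone called the flank, and 61.9% lay farther away (61.7 to 62.1). Over the 10 chromosomes the share inside was 15.3 to 23.4% and the share in the flank 19.97 to 23.9%. Chromosome 10 had the highest share in both zones. H3K27ac covers 3.35% of its length, the highest coverage of the 10 chromosomes, and 1.90 to 2.40% of the others.

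Per length of sequence, p300 summits numbered 1145 per Mb inside H3K27ac (1132 to 1158), 584 per Mb in the flank (578 to 589) and 94.3 per Mb beyond it (93.8 to 94.9). The density inside was thus 12.1 times, and that of the flank 6.19 times, the density beyond 500 bp. For strong summits these ratios were 16.9 and 11.2. The shares depend on how much acetylation is called. With the H3K27ac list limited to its 3755 intervals with a −log10 q of 10 or more, 3.86% of all p300 summits lay inside and 2.69% in the flank.

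Of the 3 zones, the flank had the highest share of strong summits among its own summits. Strong summits made up 37.6% of the summits inside, 48.9% of those in the flank and 27.1% of those beyond. The median p300 fold was 4.59 inside, 5.26 in the flank and 4.59 beyond. Within the flank the fold differed with the distance, with gaps of every length pooled. Its median was 5.53 at 1 to 50 bp from the edge, 5.93 at 51 to 100 bp, 5.56 at 101 to 200 bp, 4.98 at 201 to 300 bp and 4.63 at 301 to 500 bp. At 501 to 1000 bp it was 4.39. Flank summits in gaps of at most 500 bp had a median fold of 6.83, and 70.8% of them were strong. In the rest of the flank the median was 4.99 and the strong share 44.2%. Fold by distance was not split by gap length. The p300 interval around a flank summit often reached into the mark, since 45.7% of flank summits (45.2 to 46.2) belonged to an interval that shared at least 1 bp with H3K27ac.

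The profile across the edge had a dip just inside it. Counted in bins of 50 bp and divided by the sequence available at each distance, p300 summits had a density of 796 per Mb in the outermost 50 bp of H3K27ac intervals and 779 per Mb in the next 50 bp. Directly outside the edge the density was 869 per Mb at 1 to 50 bp and 938 per Mb (915 to 960) at 51 to 100 bp. It was 265 per Mb at 451 to 500 bp and 143 per Mb at 1451 to 1500 bp. The outside values depended on the gap between neighbouring intervals. Within 50 bp outside an edge the density was 2183 per Mb in gaps of 145 to 200 bp. In the gap classes above 500 bp it was 657 to 737 per Mb, below the 796 per Mb inside, which was not split by gap length. Deeper inside, at 350 to 400 bp from the nearer edge, it was 2020 per Mb (1910 to 2134). For strong summits the dip was deeper in the profile over gaps of every length. Their density was 199 per Mb (188 to 210) at 50 to 100 bp inside the edge and 540 per Mb (524 to 558) at 51 to 100 bp outside it. Strong summits near the edge were not split by gap length, so a deeper dip beside long gaps is not shown.

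**Figure D1:**
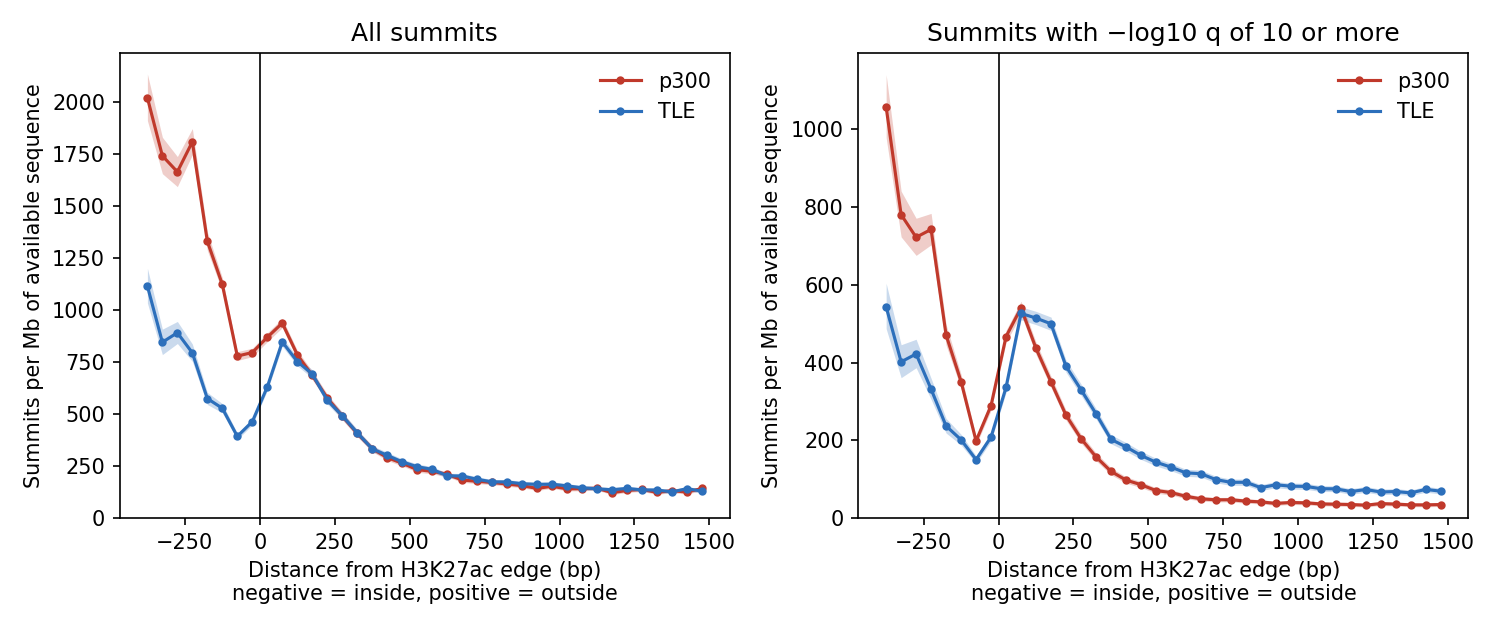
Summits of p300 (red) and of TLE (blue) per Mb of available sequence, against the distance from the nearest H3K27ac edge in bins of 50 bp, for all summits (left) and for summits with a −log10 q of 10 or more (right). Shading is the 95% counting interval, and the outside bins include gaps of every length. Both lists are lowest at 50 to 100 bp inside the edge within the plotted inside range and have a maximum at 51 to 100 bp outside it; for p300 these densities are 779 and 938 per Mb over all summits.

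Positions far inside the edge exist only in wide intervals, so edge and centre were also set side by side within classes of H3K27ac width. In intervals of 152 to 200 bp the 3 places hardly differed, with 523 p300 summits per Mb in the central 20% (471 to 579), 533 per Mb in the 50 bp inside each edge (502 to 565) and 536 per Mb in the 100 bp outside (514 to 559). In intervals of 301 to 500 bp the central 20% had 1109 per Mb, the edge 888 per Mb and the outer 100 bp 1112 per Mb. In intervals of 801 to 3293 bp the centre stood highest, at 2182 per Mb (2099 to 2268), against 1352 per Mb at the edge and 1497 per Mb outside.

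Strong summits were denser in the 100 bp outside than at the edge or in the central 20% in all width classes up to 800 bp. The 100 bp outside include short gaps between neighbouring intervals, which were not taken out here. At widths of 301 to 500 bp they numbered 377 per Mb in the central 20% (345 to 411), 330 per Mb at the edge and 655 per Mb (629 to 682) in the 100 bp outside. At 501 to 800 bp the densities were 597, 580 and 941 per Mb in the same order. In the widest class, of 801 to 3293 bp, the centre held 1163 strong summits per Mb (1102 to 1226) and the outer 100 bp held 1004 per Mb (945 to 1067), so that the order of these places was turned round.

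Over all H3K27ac intervals together, p300 leaned slightly towards the middle of the mark, but not in the narrowest ones. The central 20% of the width held 22.8% of the 30957 inside summits (22.4 to 23.3), where an even spread gives 20%, and the outer deciles at both ends together held 16.7% (16.3 to 17.2). Among the 11642 strong inside summits the central 20% held 25.1% (24.3 to 25.9). In the 21109 intervals of 152 to 200 bp the central 20% held 19.4% of the inside summits (17.6 to 21.2) and 14.8% of the strong ones (11.7 to 18.4), and in the wider classes 21.6 to 25.3% of all and 22.3 to 30.7% of strong summits. The first and last deciles of the interval held nearly equal shares, 8.45 and 8.31%. The departure from an even spread was small, and summits were found in every decile of the width. It was not particular to p300, since the central 20% held 23.2% of the TLE and 23.6% of the Gsc summits inside H3K27ac. Among strong summits the shares were 25.1% for p300, 23.4% for TLE and 29.3% for Gsc.

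**Figure D2:**
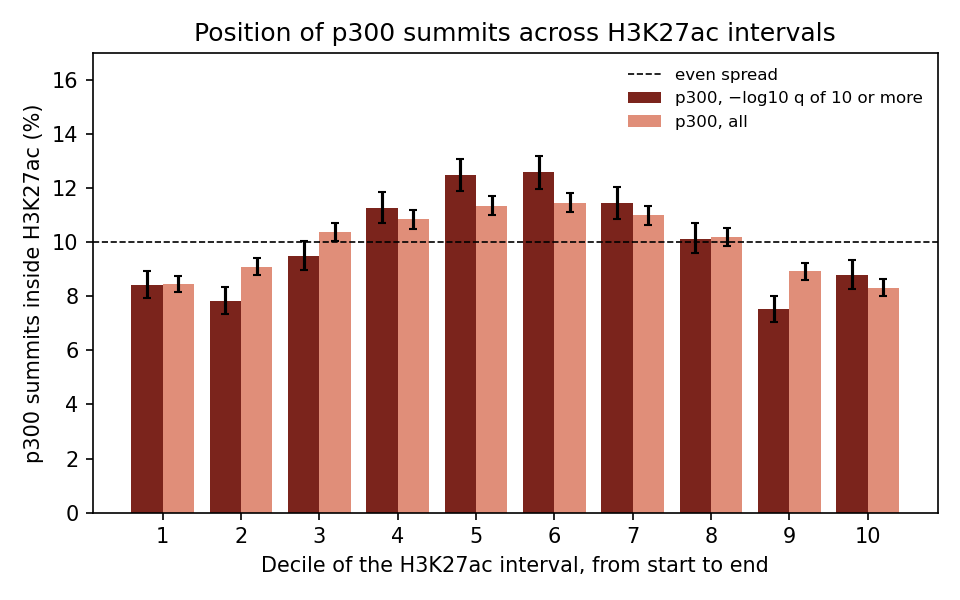
Share of the p300 summits inside H3K27ac that lies in each decile of the interval width, from start to end, for strong summits (dark) and all summits (light). Error bars are 95% exact binomial intervals and the dashed line marks an even spread of 10%; the fifth and sixth deciles are highest, at 11.4 and 11.5% of all inside summits.

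Outside the mark, p300 summits were densest in short gaps between neighbouring H3K27ac intervals, and the strong share was highest there, although the summits of highest fold lay elsewhere. The limit of 500 bp for a short gap was set after these data were seen. Of 73677 gaps between neighbouring intervals, 69.4% held at least 1 p300 summit. This share includes long gaps with more room for a summit, so gaps are compared by density. The 10856 short gaps, from 145 bp long, made up 4.74% of the flank's length and held 17.9% of its p300 summits (6727 of 37620). In 5092 short gaps (46.9%, 46.0 to 47.8) at least 1 summit was present.

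The density of p300 summits was 2505 per Mb in gaps of 145 to 200 bp (2371 to 2645), 2429 per Mb at 201 to 300 bp, 1980 per Mb at 301 to 500 bp, 1099 per Mb at 501 to 1000 bp and 566 per Mb at 1001 to 2000 bp. In gaps over 20000 bp it was 87.9 per Mb. The shortest gaps thus had a higher density than the H3K27ac intervals as a whole. Positions within 50 bp of an edge also differed by gap length. There the density was 2183 per Mb in gaps of 145 to 200 bp, 720 per Mb in gaps of 501 to 1000 bp and 657 per Mb in gaps over 20000 bp.

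The strong share followed the same order, but the fold did not throughout. Strong summits made up 79.8% of the p300 summits in gaps of 145 to 200 bp, 75.3% at 201 to 300 bp, 64.1% at 301 to 500 bp, 53.5% at 501 to 1000 bp and 28.6% over 20000 bp. The median fold was 8.40 in gaps of 145 to 200 bp, 6.10 at 301 to 500 bp, 4.45 at 2001 to 5000 bp, where it was lowest, and 4.76 over 20000 bp. Within gaps of 301 to 500 bp the central 33.3% held 41.4% of the summits (39.7 to 43.1), and within gaps of 145 to 200 bp it held 37.6% (35.0 to 40.3), where an even spread would put 33.3%. For TLE the central 33.3% held 47.7% of the summits in gaps of 301 to 500 bp and 45.4% in gaps of 145 to 200 bp. In 2081 of the 10856 short gaps (19.2%) a single p300 interval ran across the gap and into the mark on either side.

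**Figure D3:**
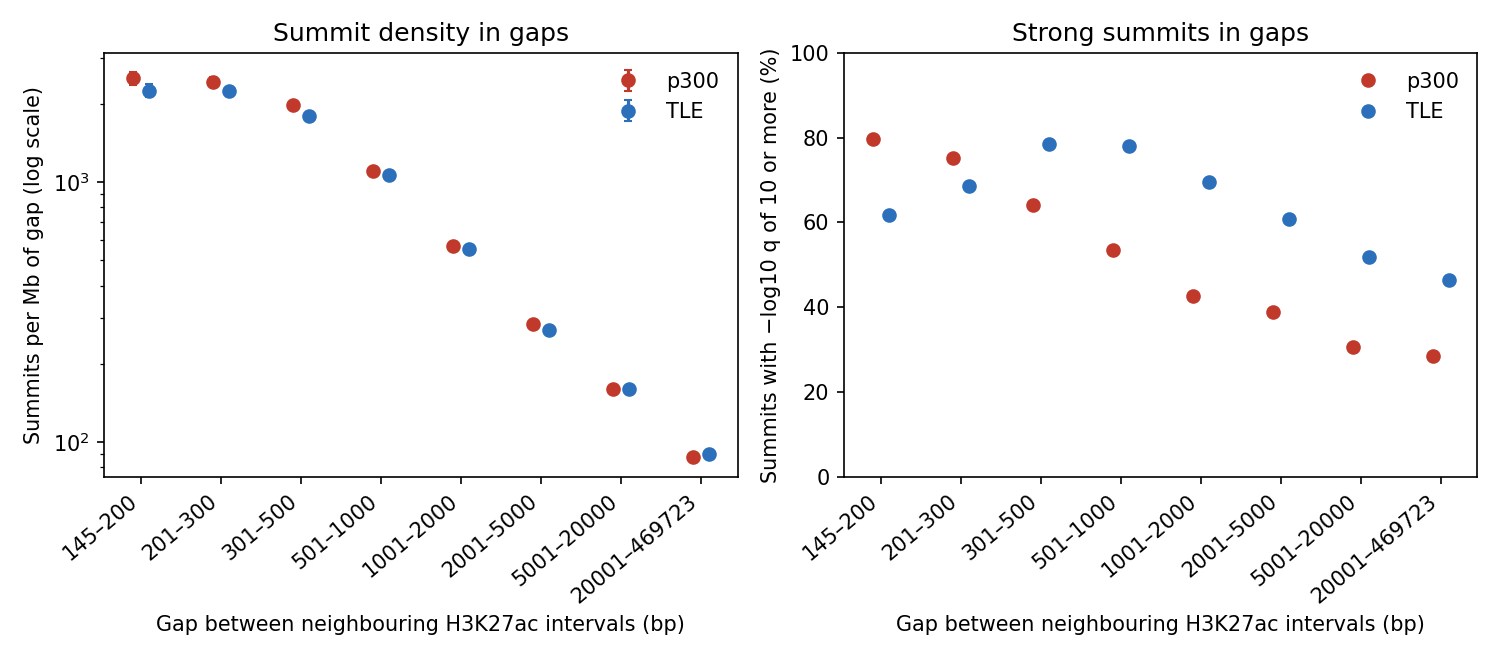
Density of p300 (red) and TLE (blue) summits on a log scale (left), and share of those summits with a −log10 q of 10 or more (right), in gaps between neighbouring H3K27ac intervals, by gap length. Error bars on the left are 95% counting intervals; p300 density is 2505 per Mb in gaps of 145 to 200 bp and 87.9 per Mb in gaps over 20000 bp, and the strong share is 79.8% and 28.6%.

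Short gaps with a p300 summit lay between wider acetylated intervals than those without. The H3K27ac intervals next to them had a median width of 371.5 bp, against 277 bp next to short gaps without p300, and their median H3K27ac folds were 2.72 beside gaps with p300 and 2.59 beside those without it. The gap itself had a median of 279 bp with p300 and 245 bp without it. Together with its 2 neighbours, a short gap with p300 spanned a median of 1117 bp, and one without it 895 bp.

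The highest p300 folds in short gaps, singled out after the values were seen, give single places of p300 between acetylated intervals. On chromosome 8 a gap of 151 bp at 499712 to 499862 held a summit at 499814 with a fold of 23.1. It lay between acetylated intervals of 337 and 528 bp, whose H3K27ac folds were 3.24 and 3.76. On chromosome 1 a gap of 496 bp at 86912975 to 86913470 held a summit at 86913355 with a fold of 25.02, between acetylated intervals of 397 and 364 bp. Another on chromosome 1, of 176 bp at 137128662 to 137128837, held a summit with a fold of 22.4 between acetylated intervals of 170 and 152 bp. Both were narrower than the median of 277 bp beside short gaps without p300. Each of the 3 summits lay in intervals of H3K4me1, Otx2 and TLE.

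The peaks of other libraries at p300 summits differed between these places. Otx2 is a homeodomain activator of the head organizer, Lim1 (Lhx1) is a LIM-homeodomain partner of it there, and Gsc (goosecoid) is a homeodomain repressor. TLE is the Groucho corepressor, and H3K4me1 is a mark of enhancers. A TLE interval covered 41.3% of the p300 summits inside H3K27ac (40.7 to 41.8), 86.9% of those in short gaps (86.1 to 87.7), 67.2% of the flank summits outside short gaps and 39.7% of those beyond the flank. Otx2 covered 60.8% inside, 86.7% in short gaps, 69.1% in the rest of the flank and 49.8% beyond. For both proteins the share was thus highest in short gaps.

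H3K4me1, Lim1 and Gsc had their highest shares inside the mark. H3K4me1 covered 66.5% of p300 summits inside H3K27ac (65.9 to 67.0), 34.5% in short gaps (33.4 to 35.6), 39.5% in the rest of the flank and 14.6% beyond. Lim1 covered 34.6% inside, 29.2% in short gaps, 19.4% in the rest of the flank and 7.79% beyond, and Gsc 11.9, 5.31, 5.76 and 2.90% of the same places. Over all places together, strong summits were more often covered by each of these lists, so the places were also compared among strong summits. For H3K4me1 this held beyond the flank, but not inside, in short gaps or in the rest of the flank. Among strong summits TLE covered 68.6% inside (67.8 to 69.4), 94.2% in short gaps, 84.2% in the rest of the flank and 48.7% beyond the flank. Otx2 covered 84.8, 96.6, 89.8 and 69.6% of strong summits in the same places. For both proteins, short gaps thus differed less from the rest of the flank than over all summits. H3K4me1 covered 65.4% of the strong summits inside and 28.0% of those in short gaps (26.8 to 29.3). The p300, TLE and Gsc lists are narrow, and the H3K27ac, H3K4me1, Otx2 and Lim1 lists are broad. The wide intervals of the broad lists can cover a summit more readily than those of the narrow lists, and width was not held fixed here.

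Set against p300, TLE summits were found less within the mark and, over all summits, about as often beside it. Inside H3K27ac lay 17.2% of p300 summits and 9.51% of the 166085 TLE summits (9.37 to 9.65), and in the flank 20.9% of p300 and 21.1% of TLE summits. Per length, p300 was 1.96 times as dense inside as in the flank, and TLE 1.07 times. Among strong summits this ratio was 1.51 for p300 and 0.722 for TLE. The flank held 30.6% of strong p300 and 26.9% of strong TLE summits. The limit on −log10 q holds for 33.5% of p300 but 50.4% of TLE summits, so strong is not the same rank in both lists. In gaps of 145 to 200 bp both were dense, at 2505 p300 and 2249 TLE summits per Mb. Gsc, with 19256 summits, was 3.69 times as dense inside as in the flank.

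The other histone mark gave a like picture for p300. Of the p300 summits, 17.2% lay inside H3K27ac and 28.5% inside H3K4me1 (28.3 to 28.7), which covers 43.6 Mb. The density of p300 summits was 1145 per Mb inside H3K27ac and 1178 per Mb inside H3K4me1. Gaps of at most 500 bp held 2201 p300 summits per Mb between H3K27ac intervals and 2493 per Mb between H3K4me1 intervals, and 70.8 and 71.2% of these summits were strong. The 2 marks share an input library.

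The number of p300 summits depended on the width of the acetylated interval. Over all H3K27ac intervals, 25.8% held at least 1 summit (18983 of 73687). This share was 6.83% in the narrowest decile of widths, 152 to 154 bp (6.26 to 7.43), 16.3% in the fifth decile, 238 to 276 bp, 35.4% in the eighth, 390 to 501 bp, 48.6% in the ninth, 501 to 704 bp, and 74.4% in the widest, 704 to 3293 bp (73.4 to 75.4). Each decile stood above the narrower one next to it. The mean was 0.0695 summits per interval in the narrowest decile and 1.81 in the widest. Counting strong p300 summits alone, the shares were 1.47% in the narrowest and 45.8% in the widest decile. With all p300 summits counted, the shares among the H3K27ac intervals with a −log10 q of 10 or more, ordered by width anew, were 62.9% and 96.5%.

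A wide interval has more room, but wide intervals also held more summits per length, though not at every step. There were 0.457 p300 summits per kb of H3K27ac in the narrowest decile, 0.580 in the second, 0.573 in the third, 0.705 in the fifth and 1.80 in the widest. Strong summits numbered 0.0963, 0.152, 0.135, 0.210 and 0.825 per kb in the same deciles, and 0.203 per kb in the sixth. The widest decile made up 27.3% of the acetylated length and held 43.1% of the inside summits. TLE summits numbered 0.281 per kb in the narrowest decile and 0.918 in the widest, so the ratio of widest to narrowest was nearer to even for TLE than for p300.

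**Figure D4:**
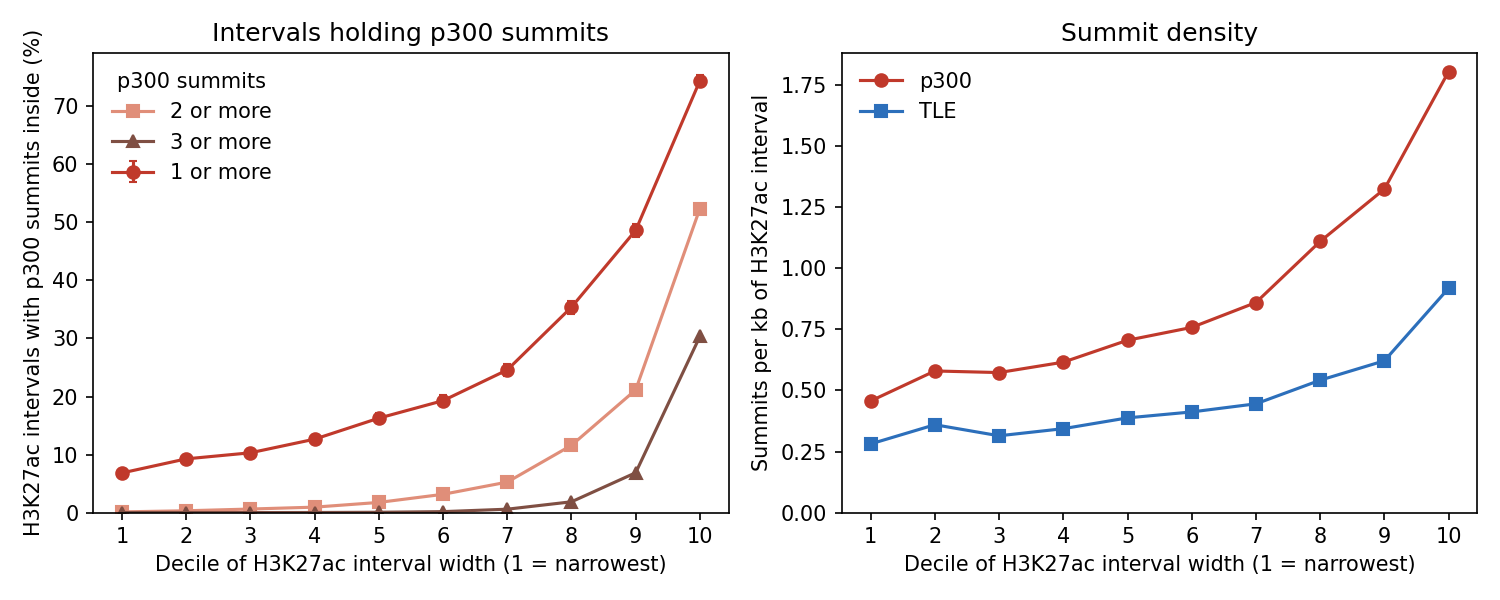
H3K27ac intervals ordered by width into deciles: share holding at least 1, 2 or 3 p300 summits (left; error bars on the first are 95% exact binomial intervals), and p300 and TLE summits per kb of interval (right). The share with at least 1 p300 summit is 6.83% in the narrowest and 74.4% in the widest decile, and the density 0.457 and 1.80 per kb.

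H3K27ac fold added to width in the widest decile and, for its highest tercile only, in the fifth. Within the widest decile, 51.9% of the tercile of intervals with the lowest H3K27ac fold held a p300 summit (49.9 to 53.9), 80.3% of the middle tercile and 91.1% of the highest tercile (89.9 to 92.2), with median folds of 2.57, 3.37 and 4.55. In the narrowest decile the same shares were 6.19, 6.64 and 7.65%, and the intervals of the lowest and highest terciles overlapped in their counting error (5.27 to 7.22 and 6.63 to 8.78).

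Intervals with more than 1 summit were a minority. A single p300 summit lay in 11817 H3K27ac intervals, 2 in 4225, 3 in 1813, 4 in 700 and 5 or more in 428. Their median widths were 365, 603, 837, 1002.5 and 1271.5 bp, against 242 bp for the 54704 intervals with none. Of all H3K27ac intervals, 24.7% held no summit but were the nearest interval to one in the flank, and 49.5% had neither. Each flank summit was credited to its nearest interval only. An interval among the 49.5% may thus still lie within 500 bp of a summit that is inside, or nearer to, its neighbour. Neighbouring p300 summits in the same acetylated interval lay a median of 201 bp apart, with quartiles of 140 and 273 bp.

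In the 3 widest acetylated intervals no p300 summit had a fold above 5.46. Their H3K27ac folds were 2.48, 2.69 and 2.82, below the median of 3.37 in the widest decile. The widest of all, on chromosome 4 at 72497503 to 72500795, held 13 p300 summits with folds of 2.08 to 3.77, together with 15 TLE summits. The next, on chromosome 8 at 112575073 to 112577998, held 4 p300 summits with folds of 2.82 to 5.08 and no TLE summit. The third in width, on chromosome 7 at 114731209 to 114734009, held 15 p300 summits with folds of 2.497 to 5.46. It shared the highest number of summits with an interval on chromosome 8 at 97878181 to 97880864, of 2684 bp, which also held 15, with folds of 2.06 to 5.99. Of these 4 intervals, the chromosome 4 and chromosome 7 ones and the second on chromosome 8 also met 9, 11 and 7 Gsc intervals. The other chromosome 8 interval met none.

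The p300 intervals were next sorted by the number of their sub-peaks. Over all 151050 intervals, 78.8% shared no base with H3K27ac (119015 intervals). Without acetylation were 83.3% of the 129811 intervals with 1 summit (83.1 to 83.5), 59.2% of the 15883 with 2, 31.4% of the 3750 with 3 (29.9 to 32.9), 17.6% of the 1130 with 4 and 15.0% of the 319 with 5. Beyond 5 the counts were small. The share was 17 of 100 with 6 summits, 5 of 30 with 7 and 8 of 27 with 8 or more, and the last has an interval of 13.8 to 50.2%. When at least 50% of a p300 interval had to lie in H3K27ac, 87.6% of those with 1 summit and 53.0% of those with 3 or more lacked acetylation. Against H3K27ac intervals with a −log10 q of 10 or more, these shares were 97.6% and 75.5%.

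The number of summits and the width of a p300 interval go together, and at a fixed width the share without acetylation no longer depended on the summits in this way. The median width was 119 bp with 1 summit, 311 bp with 2, 515 bp with 3 and 672.5 bp with 4. Among p300 intervals of 401 to 500 bp, 36.6% of those with 1 summit lacked acetylation (33.1 to 40.3), 34.3% of those with 2 (32.5 to 36.2), 39.8% of those with 3 (36.8 to 42.9) and 41.8% of those with 4 or more (30.8 to 53.4). At 601 to 800 bp the shares were 13.9% with 2 summits, 13.5% with 3 and 14.8% with 4 or more. At 327 to 400 bp the order was turned round, with 50.2% for 1 summit (48.0 to 52.4) and 58.3% for 3 (54.0 to 62.5). Above 800 bp none of 78 intervals with 3 summits lacked acetylation, against 67 of 501 with 4 or more (13.4%, 10.5 to 16.7). A count of 0 allows a share of up to 3.85% by 3 counts of the total, and the exact interval reaches 4.62%.

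**Figure D5:**
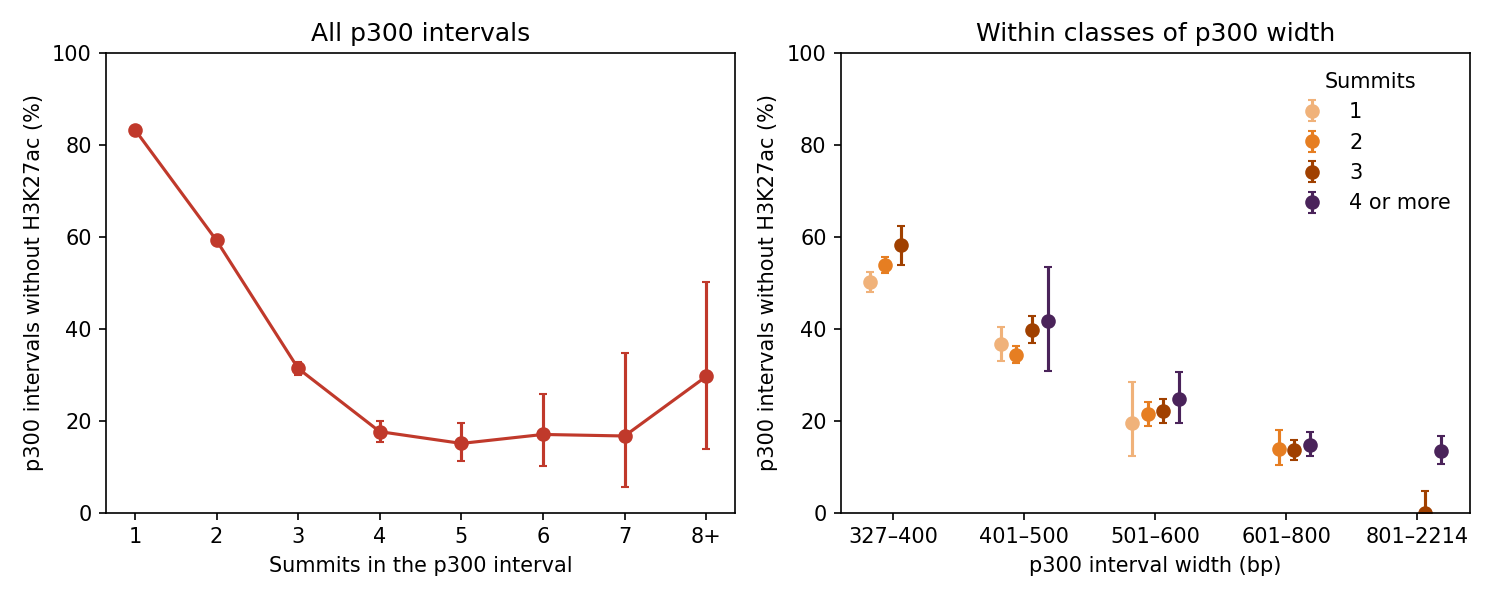
Share of p300 intervals that share no base with H3K27ac, by number of summits over all p300 intervals (left) and by interval width with the summit number in colour (right; classes with at least 20 intervals). Error bars are 95% exact binomial intervals; the share is 83.3% with 1 summit and 31.4% with 3 over all widths, but 36.6 and 39.8% among intervals of 401 to 500 bp.

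Holding the p300 fold in place of the width left the order by summit number standing. In the highest decile of fold, 80.4% of intervals with 1 summit lacked acetylation (79.7 to 81.2), 36.2% of those with 2 and 11.4% of those with 3 or more (9.93 to 12.9). In the lowest decile the shares were 78.0, 65.4 and 31.1%, the last from 45 intervals.

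Intervals with many summits also more often met several acetylated intervals at once, with their width not held fixed. H3K27ac was met at 2 or more places by 0.344% of p300 intervals with 1 summit, 4.85% of those with 2 and 16.7% of those with 3 or more. Over all p300 intervals the share was 1.40%. The median widths were 119, 311 and 572 bp in the same order, and meeting 2 acetylated intervals requires spanning a gap of at least 145 bp. Where a p300 interval with 3 or more summits met the mark, its strongest summit lay inside H3K27ac in 51.4% of 3903 cases (49.9 to 53.0), and its other summits in 64.0% of 9740 (63.1 to 65.0). The strongest summit lay in a short gap in 19.8% of cases (18.5 to 21.1), and the others in 9.97% (9.38 to 10.6). In these pooled shares the strongest sub-peaks were thus more often in short gaps than the others were. Intervals with more sub-peaks weigh more among the others, and no comparison within each interval was made.

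Among p300 intervals with 3 or more summits, the 3903 with acetylation and the 1453 without it shared most other peaks to a different degree. H3K4me1 was met by 92.5% with acetylation and 56.1% without it, Otx2 by 96.7 and 87.5%, TLE by 89.5 and 78.7%, Lim1 by 63.4 and 46.2% and Gsc by 21.4 and 22.6%. Their median widths were 606 and 469 bp and their median p300 folds 9.19 and 6.80. Of these 5 lists, Gsc alone was not met more often by the acetylated intervals. Among p300 intervals with 1 summit, Gsc was met by 11.4% of the 21654 with acetylation and 3.78% of the 108157 without it. Over all p300 intervals, 34.8% met H3K4me1, 59.9% Otx2, 47.0% TLE, 18.8% Lim1 and 6.88% Gsc.

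At single places the relation varied. The p300 interval with the most summits, 16, lay on chromosome 5 at 19609989 to 19612202 and shared 207 of its 2214 bp with H3K27ac, with 1 of the summits inside. One of 1556 bp on chromosome 8 at 117250290 to 117251845 had 11 summits, 10 of them inside H3K27ac, which covered 1484 bp of it. Without any acetylation, an interval of 1974 bp on chromosome 10 at 3713857 to 3715830 had 10 summits and a highest fold of 7.56. It met H3K4me1 and Otx2 but no Lim1, TLE or Gsc interval.

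The relation of p300 strength to the mark was not monotonic. The share inside H3K27ac was 22.5% in the lowest decile of p300 fold, 15.0% in the seventh and 19.6% in the highest, and the share in the flank was 15.7% in the fourth decile, 30.8% in the ninth and 26.1% in the highest. At the very top the mark was nearly absent. Of the 180 summits in the highest 0.1% of fold (29.7 to 40.2), 97.2% lay beyond 500 bp of H3K27ac (93.6 to 99.1). This share was 61.9% over all p300 summits and 75.4% in the 1620 summits next below in fold (17.4 to 29.6). It was 50.2% in the 8999 summits between the 90th and 95th percentiles, the lowest of the fold classes compared. All 180 were the only summit of their interval. So were 81.8% of the 1620 next below, 58.2% between the 90th and 95th percentiles and 80.0% of the 89994 summits up to the 50th percentile. Otx2 covered 77.8% of the 180 summits, TLE 16.7% and H3K4me1 17.2%, against 79.3, 63.5 and 28.9% between the 90th and 95th percentiles. In the 1620 summits next below, these shares were 74.2, 38.7 and 24.7%, and over all p300 summits 56.4, 46.4 and 28.5%. The Otx2 and H3K4me1 lists are broad and the TLE list is narrow, so shares of different lists are not like for like.

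The strongest summit of all on the chromosomes, with a fold of 40.2, lay at 22040550 on chromosome 6, 31965 bp from the nearest H3K27ac interval, in an Otx2 interval. Next was one at 110208228 on chromosome 5, also with a fold of 40.2, which lay in no interval of any other list. Inside the mark, the strongest was at 89101936 on chromosome 7, with a fold of 34.4, near the middle of an H3K27ac interval of 271 bp, and all 5 other lists covered it. In the flank, the strongest was at 80859226 on chromosome 2, with a fold of 35.3, 75 bp from an H3K27ac interval of 214 bp, and only Otx2 of the other lists covered it.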

How the data were processed

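The 7 peak lists were used as deposited, 1 per immunoprecipitated library of 11 libraries in all, and the 4 inputs were not used here. MACS2 and deepTools are named in the submitters' processing notes, without versions. The peak-calling settings, aligner and build were not given in the sources used. The authors deposited for each line a fold enrichment (a ratio to local background), a −log10 p, a −log10 q and a score, which is 10 times the −log10 q without decimals (checked, largest difference 1). Narrow lists repeat an interval for each summit and give the summit's offset. The gene table's assembly differs from the lists' build: genes ran over 1 Mb past the last peak on 10 of 10 chromosomes. No region was therefore assigned to a gene, and no sequence is printed. Coordinates count from 1.

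Summits were placed in H3K27ac intervals with Python 3.11.15, pandas 2.3.3, numpy 2.4.6 and SciPy 1.17.1. Densities divide counts by the length available in each place. Flank bases and summits belong to the nearer edge. Equal widths were ordered by position. Shares have exact (Clopper-Pearson) 95% intervals and densities exact Poisson ones. The placement was tested on simulated data. Regions were named by rule, of which the text gives part: the 3 H3K27ac intervals first in width and in p300 summits, the 3 p300 summits of highest fold inside, in the flank and beyond, and the 3 p300 intervals with most summits with and without H3K27ac. Members, gap classes and lists were chosen with earlier results of these data known.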

Additional observations from a re-analysis of the deposited data

How the results depend on the processing

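Other settings gave 51 values besides those without a chromosome; those on short gaps and on a fixed p300 width were added after seeing the data. Of the 51 values, 6 stayed within the counting interval of the value reported. No paired analysis was possible because p300 and H3K27ac have a single library each. In the order inside share, flank share, central 20% share, widest decile share and narrowest decile share, limiting p300 to a −log10 q of 10 or more gave 19.3, 30.6, 25.1, 45.8 and 1.47%, limiting H3K27ac likewise gave 3.86, 2.69, 24.2, 96.5 and 62.9%, and taking only the strongest summit per p300 interval gave 13.9, 18.9, 23.7, 70.5 and 5.999%. Joining H3K27ac gaps of at most 500 bp gave 20.9, 17.2, 24.7 and 87.5% for the first 4, and including unplaced scaffolds gave 20.4% inside, 76.4% in the widest and 7.76% in the narrowest decile. The flank share was 14.9% with 250 bp and 26.6% with 1000 bp. Averaged over every decile of p300 width, 79.7% of p300 intervals with 1 summit lacked acetylation. With 3 or more summits the average was 47.2%, over the ninth and widest deciles only, which alone hold at least 20 such intervals. These averages are thus not at equal width, and in the same deciles 69.2 and 45.4% of intervals with 1 summit lacked acetylation. The share of p300 intervals without acetylation, with 1 summit and with 3 or more, was 76.8 and 17.2% with p300 limited, 97.6 and 75.5% with H3K27ac limited, 87.6 and 53.0% when 50% of the interval had to be covered, and 36.6 and 39.9% among p300 intervals of 401 to 500 bp. With 1 summit it was 82.5% after joining and 81.0% with scaffolds. So the order by summit number is lost at this fixed width. The limit on H3K27ac, which leaves 3755 intervals, moved several values far. The inside share went from 17.2 to 3.86%, the flank share from 20.9 to 2.69% and the narrowest decile share from 6.83 to 62.9%. The share without acetylation at 3 or more summits went from 27.1 to 75.5%. Short gaps held a summit in 34.6% with p300 limited, 88.4% with H3K27ac limited (173 gaps), 43.4% with scaffolds, 42.9% with the strongest summit only and 41.5% for gaps of at most 250 bp, and the strong share in them was 89.2, 68.1, 72.4 and 78.2% under the last 4 settings. Leaving out each chromosome gave 16.9 to 17.4% inside, 20.8 to 21.0% in the flank, 22.7 to 22.9% in the central 20%, 74.2 to 74.8% and 6.61 to 6.98% in the widest and narrowest deciles, 83.2 to 83.6% and 26.6 to 27.6% without acetylation, and 46.6 to 47.3% and 70.3 to 71.3% for short gaps. Depth is unknown, and the share of unacetylated p300 peaks depends on how many H3K27ac intervals were called.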
